A study of Mus musculus with 15 samples.

Results

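Mice make their own vitamin C in the liver, and the 7 genes described here carry the route from UDP-glucose to ascorbate and the cellular uptake of ascorbate. They were chosen by symbol for these functions, with earlier results of these data known, from the 55984 gene symbols of the count table. All 7 were found, and all 7 passed the filter on low counts that left 17488 genes for testing. The hepatocytes came from livers of wild-type (WT) adult male mice of the strain C57BL/6JJcl, on a standard diet, and were sorted by flow cytometry on Hoechst, a dye that binds DNA. The population 2n-whole held diploid cells and 4n-whole held tetraploid cells. The 4n cells were also split by the height of the Hoechst signal into 4n-bottom, enriched for cells with a pair of diploid nuclei, and 4n-top, enriched for cells with a single tetraploid nucleus. Neither of these is pure, and 4n-top came from a single round of sorting. There were 4 libraries of 2n-whole, 4n-whole and 4n-bottom (mice 1 to 4) and 3 of 4n-top (mice 2 to 4), 15 in all, and the 4 populations of a mouse came from the same liver. The study left out the 4n-top sample of mouse 1 for poor RNA quality.

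Ugp2 encodes UDP-glucose pyrophosphorylase, which makes UDP-glucose, the donor for glycogen and the first compound of the route. Ugdh encodes UDP-glucose dehydrogenase, which oxidizes it to UDP-glucuronate, and the free glucuronate derived from it is reduced to gulonate by aldehyde reductase, the product of Akr1a1. Regucalcin, encoded by Rgn, is the gluconolactonase that closes gulonate to its lactone, and gulonolactone oxidase, encoded by Gulo, turns the lactone into ascorbate, a step that humans have lost. Slc23a1 and Slc23a2 encode SVCT1 and SVCT2, the sodium-dependent ascorbate transporters. Hepatocytes also differ along the liver lobule, from the periportal end, where blood enters, to the pericentral end, where it leaves.

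On the mouse genome build GRCm39, with the GENCODE M39 annotation, Gulo lies on the minus strand of chromosome 14 (66224235 to 66246711, 12 exons) and Rgn on the plus strand of the X chromosome (20413897 to 20428328, 7 exons). Akr1a1 is on chromosome 4 (116493703 to 116516804), Ugdh on chromosome 5 (65570551 to 65593805), Ugp2 on chromosome 11 (21270384 to 21321276) and Slc23a2 on chromosome 2 (131894415 to 131987446). The exons of Rgn overlapped no other gene. Those of Ugp2 shared 950 bases with Vps54 and those of Gulo 108 bases with the noncoding RNA gene Gm63415, both on the opposite strand. Other overlaps included 299 bases of Ugp2 with Gm12043 and 101 bases of Slc23a2 with Gm14051, also on the opposite strand. Ugdh shared 158 bases with Gm43552 on the same strand, where strand cannot tell the genes apart. Since the strand setting of the counting is not given in the sources used here, reads from these stretches could not be assigned to one gene or the other.

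Ugp2 was the member that passed the test between 4n-whole and 2n-whole on the lower side, and the 250 bases before the start site of its canonical transcript are shown for that reason, 5′ to 3′ on the strand of the gene. They lie at chr11:21320811-21321060 of GRCm39 and are all in lower case, as no match was found to the motifs searched. This stretch is inside the annotated span of Ugp2, which reaches 21321276, so the annotation also holds a start further upstream. The search covers the canonical start site only.
Ugp2: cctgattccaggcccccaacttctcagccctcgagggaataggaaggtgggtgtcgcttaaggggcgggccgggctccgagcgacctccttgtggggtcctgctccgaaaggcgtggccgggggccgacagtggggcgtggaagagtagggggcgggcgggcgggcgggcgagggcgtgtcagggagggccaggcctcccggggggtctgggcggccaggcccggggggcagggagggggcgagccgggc
A window of 250 bases before to 50 bases after the start site was searched on both strands in 21533 promoters for 5 motifs. The Ugp2 window held neither the nuclear receptor half-site AGGTCA (15.1% of promoters) nor the TATA box TATAAA (13.2% of promoters), the TCF/LEF core CTTTGA (16.1%), the antioxidant response element core TGACNNNGC (12.5%) or the HNF1 half-site GTTAAT (6.88%). The window was 75.7% G and C with 27 CpG dinucleotides, a GC share higher than in 98.0% of promoters. The medians over all promoters were 54.3% and 11 CpG.

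Expression is given as CPM, the counts of a gene per 1000000 counts of its library after TMM scaling. Library totals ranged from 22049498 to 42096421 counts, and the members had between 224 and 15862 counts per library, so that counting error was small beside the spread between mice. The hepatocyte markers summed to between 66903 and 94095 CPM in every library, while endothelial markers reached at most 20.0 CPM, Kupffer cell markers 7.64 CPM, stellate cell markers 4.90 CPM and lymphocyte markers 0.518 CPM. Red blood cell markers summed to 52.7 to 106 CPM, where 1 of the 5 listed genes, Alas2, passed the filter and the globin genes Hbb-bs and Hba-a2 were at 0 in every library. Alas2 was not called in 4n-whole against 2n-whole (-0.12, edgeR adjusted p = 0.57). Cholangiocyte markers were higher in 2n-whole (34.6 to 47.4 CPM) than in the 4n libraries (at most 32.0 CPM). Of the 4 tested, 2 were called lower in 4n-whole than in 2n-whole, Spp1 and Sox9, beside 1.73% of all genes. The part of cholangiocytes in the results was not tested. One animal stood apart. The 9 pericentral marker genes summed to 826 to 857 CPM in the 3 4n libraries of mouse 2, against 918 to 3186 CPM in the other 4n libraries and 489.8 to 836 CPM in 2n-whole. Results are therefore also given without mouse 2 where this changed the call of a member between populations, and for some other values. Mouse 2 was singled out by values of these same libraries, so p-values without it are descriptions and not independent evidence.

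Levels of different genes were compared per kilobase of exon. Over the union of exons, the median of the 15 libraries was 56.8 CPM per kb for Akr1a1, 51.0 for Rgn, 25.4 for Gulo, 20.8 for Ugp2, 14.5 for Slc23a1, 13.9 for Ugdh and 1.42 for Slc23a2. With the length of the canonical transcript instead, Ugdh (34.7 CPM per kb) stood above Ugp2 (27.5) and Gulo (25.5), so the middle of the order depends on the length used, while Akr1a1 and Rgn came first and Slc23a2 last under both. The order also differed between populations. In 2n-whole, Akr1a1 stood at 53.0 ± 1.98 CPM per kb of exon union (SD, n = 4) and Rgn at 30.1 ± 4.40, with no overlap. In 4n-whole they stood at 57.7 ± 3.65 and 94.1 ± 39.9, and the Rgn value of mouse 2, 38.3 CPM per kb, lay below every Akr1a1 value. Gulo, at 14.38 ± 3.13 in 2n-whole, lay within its spread of Slc23a1 (13.8 ± 3.39) and Ugdh (13.5 ± 1.35), and in 4n-whole it stood at 45.8 ± 19.1 against 12.0 ± 3.17 and 14.3 ± 1.66. With canonical lengths Ugdh lay above Gulo in 2n-whole, at 33.5 ± 3.35 against 14.44 ± 3.15, and within its spread in 4n-whole, at 35.5 ± 4.12 against 46.0 ± 19.2.

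**Figure D1:**
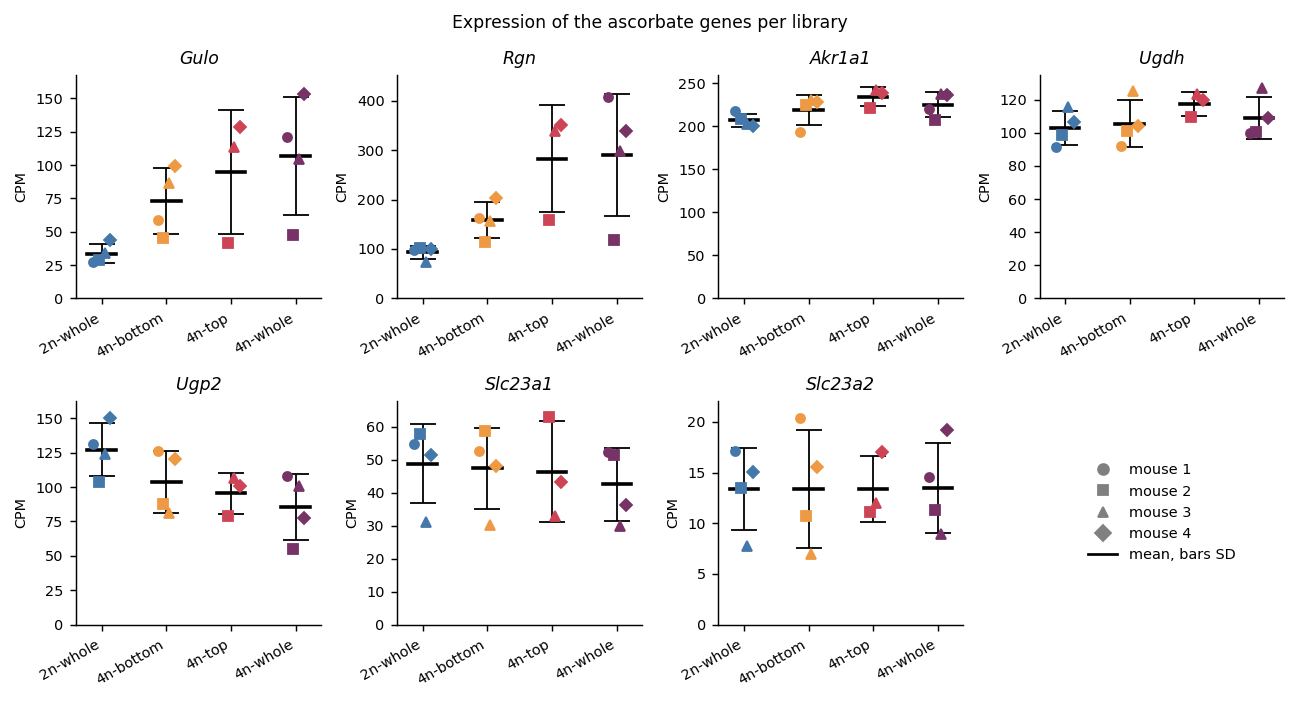
Expression of the 7 genes in CPM (vertical axes, starting at 0) in each library of the 4 sorted populations, with the mouse given by the symbol, the mean by the thick line and the SD by the bars. Gulo was between 27.6 and 43.7 CPM in 2n-whole and between 47.4 and 154 CPM in 4n-whole, and the lowest 4n-bottom, 4n-top and 4n-whole values of Gulo and of Rgn belong to mouse 2, while Akr1a1 stayed between 193 and 242 CPM in all 15 libraries.

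The first comparison asks how tetraploid hepatocytes as a whole differ from diploid ones. The genes of the last 2 steps, Gulo and Rgn, were about 3-fold higher in 4n-whole than in 2n-whole, and Ugp2, at the start of the route, was lower. Akr1a1, Ugdh and both transporters did not pass the test. A gene was called at an adjusted p under 0.05 with an absolute log2 fold change over 0.5, and 3 of the 7 members were called, 2 of them higher and 1 lower, where 3.47% of the 17488 genes tested were called (1.74% higher and 1.73% lower). The CPM ranges of the populations were apart for 2 of the 7, against 5.8% of all genes. As the members were chosen with results of these libraries known, these counts and the p-values are not independent evidence.

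Gulo was measured at 27.6, 28.9, 33.7 and 43.7 CPM in 2n-whole of mice 1 to 4 and at 121, 47.4, 105 and 154 CPM in 4n-whole of the same mice. The lowest 4n-whole library, that of mouse 2, lay just above the highest 2n-whole library, so the populations did not overlap. The log2 fold change was 1.57 (SE 0.16, 95% interval 1.25 to 1.90, 2.98-fold; edgeR adjusted p = 2.4e-07). Gulo was higher in 4n-whole in 4 of 4 mice, by 1.64-fold in mouse 2 and by 3.10-fold to 4.39-fold in the others.

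Rgn was at 97.2, 102, 73.1 and 101 CPM in 2n-whole and at 408, 119, 299 and 339 CPM in 4n-whole. Mouse 2 was again the lowest 4n-whole library, at 1.16 times its own 2n-whole value, while the other mice showed ratios of at least 3.36. The populations did not overlap, and the log2 fold change was 1.51 (SE 0.19, 95% interval 1.12 to 1.89, 2.84-fold; edgeR adjusted p = 5.6e-06). Without mouse 2 the log2 fold changes were 1.86 for Gulo and 1.95 for Rgn, and both genes stayed called in all 10 alternatives.

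Ugp2 stood at 131, 104, 124 and 150.2 CPM in 2n-whole and at 108, 55.3, 101 and 77.8 CPM in 4n-whole. It was lower in 4n-whole in 4 of 4 mice, but the ranges overlapped, since mouse 1 of 4n-whole lay above mouse 2 of 2n-whole. The log2 fold change was -0.60 (SE 0.12, 95% interval -0.84 to -0.35; edgeR adjusted p = 0.0032). Without mouse 4 it was -0.49 (edgeR adjusted p = 0.066) and no longer called, and without the block for mouse it was -0.57 (edgeR adjusted p = 0.26). Over the 10 alternatives tried, the adjusted p of Ugp2 by edgeR or DESeq2 ran from 3.6e-06, without the filter on low counts, to 0.26.

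Among the 4 members that were not called, the middle enzymes differed least between libraries. Akr1a1 had a log2 fold change of 0.12 (95% interval -0.06 to 0.29) and Ugdh of 0.08 (-0.09 to 0.25), so that for both genes a change of over 0.5 lay outside the interval. Slc23a1 was lower in 4 of 4 mice, at 54.7, 57.8, 31.2 and 51.4 CPM in 2n-whole and 52.4, 51.4, 29.8 and 36.4 CPM in 4n-whole, with a log2 fold change of -0.20 (SE 0.10; edgeR adjusted p = 0.28). Slc23a2 had a log2 fold change of 0.01 (95% interval -0.33 to 0.35), with 2 mice higher and 2 lower. The median over the 7 members was 0.08, beside -0.01 over all genes tested. In sorted bulk samples these are shares of the RNA of each library, and a lower RNA output per cell cannot be told apart from fewer cells that express a gene.

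**Figure D2:**
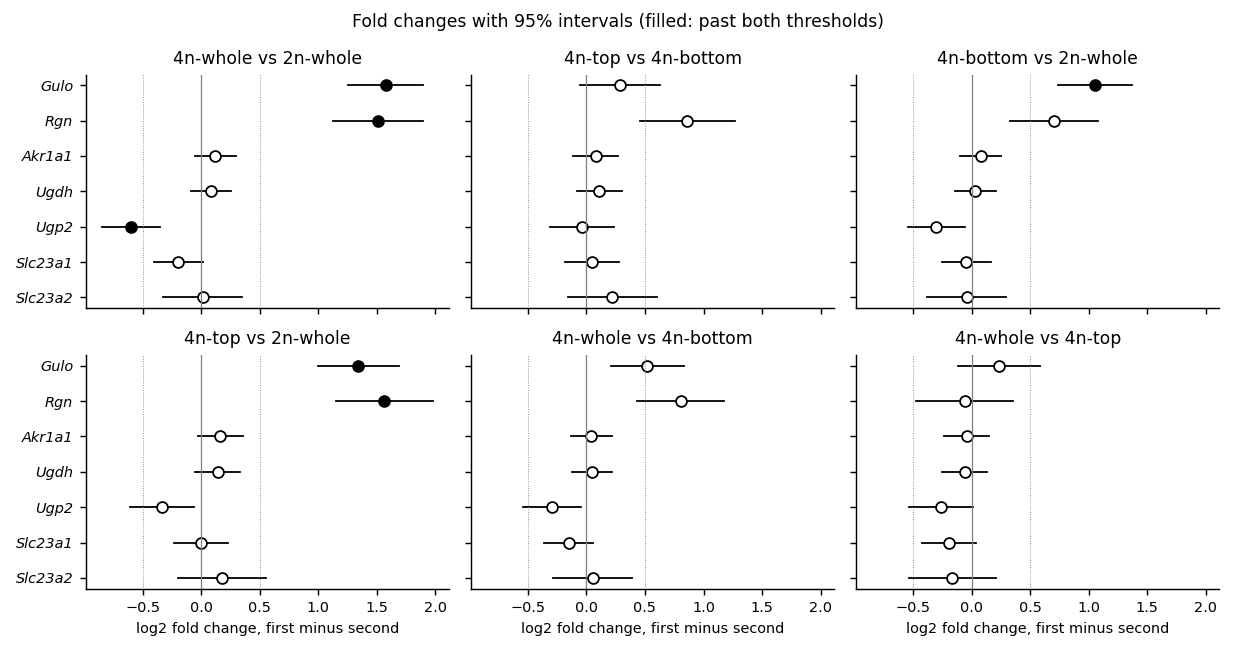
Log2 fold changes of the 7 genes (points) with 95% intervals (horizontal lines) in the 6 comparisons between populations. Filled points passed both thresholds, which are an adjusted p under 0.05 and an absolute log2 fold change over 0.5 (dotted lines). Gulo and Rgn are filled in 4n-whole and 4n-top against 2n-whole, Gulo alone in 4n-bottom against 2n-whole, Ugp2 alone on the lower side, and none in the 3 comparisons among 4n populations, where Rgn in 4n-top against 4n-bottom is drawn without a test.

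The second comparison sets 4n-top, enriched for mononucleated tetraploid cells, against 4n-bottom, enriched for binucleated ones. The Rgn value is given as a description, without a test, because the study displays this gene for this very contrast. None of the 6 other members was called by edgeR, where 0.0114% of the genes tested were called. DESeq2 also called 0 of the 6, and 0 were at an unadjusted p under 0.05 by edgeR, where 2.79% of all genes were. Rgn was at 158, 339 and 351 CPM in 4n-top of mice 2, 3 and 4 and at 162, 114, 157 and 204 CPM in 4n-bottom of mice 1 to 4. It was higher in 4n-top in 3 of 3 mice, by 1.38-fold, 2.16-fold and 1.72-fold, though the ranges overlapped through mouse 2, and the log2 fold change was 0.86 (SE 0.20). Without mouse 2 it was 1.03.

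Gulo was at 41.7, 114 and 129 CPM in 4n-top and at 59.1, 45.6, 86.8 and 99.5 CPM in 4n-bottom. In mouse 2 it was slightly lower in 4n-top, in mice 3 and 4 it was 1.31-fold and 1.29-fold higher, and the log2 fold change was 0.28 (SE 0.17, 95% interval -0.06 to 0.62; edgeR adjusted p = 1). The 4 members other than Gulo, Rgn and Slc23a2 had log2 fold changes from -0.04 for Ugp2 to 0.11 for Ugdh. Slc23a2 was at 11.1, 12.0 and 17.0 CPM in 4n-top and at 20.3, 10.7, 6.98 and 15.6 CPM in 4n-bottom, with a log2 fold change of 0.22 (95% interval -0.16 to 0.60).

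The mean levels of Gulo and Rgn were higher in both parts of the 4n cells than in 2n-whole. All 3 comparisons with 2n-whole use the same 2n-whole libraries, so they are not separate evidence. In 4n-bottom against 2n-whole, Gulo was the member called, 1 of 7 where 0.463% of genes were called, with a log2 fold change of 1.06 (SE 0.15; edgeR adjusted p = 0.00039). It was higher in 4 of 4 mice and the ranges did not overlap. The log2 fold change of Rgn was 0.70 (SE 0.18; edgeR adjusted p = 0.093) and was not called, although its ranges were apart too, which held for 3.52% of all genes. Without mouse 2 it was 0.94 (edgeR adjusted p = 2.2e-08) and called. Without mouse 1, 3 or 4 it was 0.68, 0.59 and 0.59 (edgeR adjusted p = 0.23, 0.16 and 0.36) and not called. Without the block for mouse the Gulo value was 1.12 (edgeR adjusted p = 0.87) and not called. Over 10 alternatives the adjusted p by edgeR or DESeq2 ran from 7.2e-19 to 0.87 for Gulo and from 2.8e-10 to 0.898 for Rgn. Both lowest values came without the filter on low counts, where the log2 fold changes were 1.06 and 0.71.

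In 4n-top against 2n-whole both were called, 2 of 7 where 0.961% of genes were called. The log2 fold change was 1.34 for Gulo (SE 0.17; edgeR adjusted p = 1.4e-05) and 1.56 for Rgn (SE 0.20; edgeR adjusted p = 1.7e-05), higher in 3 of 3 mice for each. Gulo overlapped between the populations, as 4n-top of mouse 2 (41.7 CPM) lay below 2n-whole of mouse 4 (43.7 CPM), and Rgn did not. Akr1a1 ranges were also apart, at 222, 242 and 238 CPM in 4n-top against 199.8 to 217 CPM in 2n-whole, or 0.16 on the log2 scale (edgeR adjusted p = 0.55), where 9.21% of all genes had ranges apart in this comparison of 3 with 4 libraries. Without the block for mouse neither Gulo (1.50, edgeR adjusted p = 0.14) nor Rgn (1.60, edgeR adjusted p = 0.066) was called. These were the highest adjusted p of the 10 alternatives. The lowest, edgeR adjusted p of 3e-26 and 7.2e-46, came without the filter on low counts, where the log2 fold changes were 1.34 and 1.57.

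Ugp2 was not called in either of these. Its log2 fold changes were -0.30 in 4n-bottom (SE 0.12; edgeR adjusted p = 0.36) and -0.34 in 4n-top (SE 0.13; edgeR adjusted p = 0.295) against 2n-whole, and it was lower than 2n-whole in every mouse in both. It was at 126, 87.4, 81.4 and 120.4 CPM in 4n-bottom of mice 1 to 4 and at 78.7, 107 and 101 CPM in 4n-top of mice 2 to 4. Both ranges overlapped that of 2n-whole.

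By their means, the 4 populations stood in one order for Gulo and Rgn. Gulo was at 33.5 ± 7.30 CPM in 2n-whole, 72.7 ± 24.7 in 4n-bottom, 94.7 ± 46.5 in 4n-top (n = 3) and 107 ± 44.4 in 4n-whole (SD, n = 4 elsewhere). Rgn was at 93.3 ± 13.6, 159 ± 36.7, 283 ± 108 and 291 ± 124 CPM in the same order. For both genes 2n-whole and 4n-bottom did not overlap, and the neighbours above them overlapped. The 4n-top means lack mouse 1, so the order of means is not an order within mice. Within mice, Rgn was lower in 4n-whole than in 4n-top in 3 of 3, and Gulo was higher in 2 of 3. Ugp2 ran the other way, at 127 ± 19.3, 104 ± 22.6, 95.4 ± 14.8 and 85.5 ± 23.9 CPM. The ranges of neighbours overlapped, though the 2n-whole mean lay above the highest 4n-bottom library (126 CPM). Within mice, Ugp2 was lower in 4n-top than in 4n-bottom in 2 of 3.

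The whole 4n gate was also set against each of its parts, which share its cells in principle but were sorted and sequenced as separate libraries. Against 4n-bottom, 0 of 7 members were called by edgeR (0.00572% of all genes were), with 3 at an unadjusted p under 0.05 (5.57% of all genes). These were Gulo at a log2 fold change of 0.52 (edgeR adjusted p = 0.49), Rgn at 0.80 (edgeR adjusted p = 0.16) and Ugp2 at -0.30 (edgeR adjusted p = 0.85). Gulo and Rgn were higher in 4n-whole than in 4n-bottom in 4 of 4 mice, and the ratios of mouse 2, 1.04 for both genes, were the smallest. Without mouse 2 both were called, at 0.66 (edgeR adjusted p = 0.0010) and 1.00 (edgeR adjusted p = 2.2e-08), and without mouse 3 Rgn was called at 0.76 (edgeR adjusted p = 0.026). Neither gene was called without mouse 1 or without mouse 4. Over 10 alternatives the adjusted p by edgeR or DESeq2 reached from 0.0010 to 1 for Gulo and from 5e-13 to 1 for Rgn. The lowest Rgn value came without the filter on low counts, where the log2 fold change was 0.81. Against 4n-top, 0 of 7 members were called by edgeR (0% of all genes) and 0 were at an unadjusted p under 0.05 (4% of all genes). Rgn was lower in 4n-whole in 3 of 3 mice, at a log2 fold change of -0.06 (95% interval -0.47 to 0.36), which turned to 0.043 without the block for mouse and to 0.048 without mouse 3.

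Most of the members also differed between mice. In an F test of the mouse within the same fit, 6 of the 7 members had an edgeR adjusted p under 0.05, all except Akr1a1, where 19.2% of the genes tested did. The mouse, its age within the range the study used, its dissociation, its sort and its library preparation cannot be told apart here. Gulo spanned 1.23 on the log2 scale between the lowest animal, mouse 2 at -0.70 from the mean of the mice, and the highest, mouse 4 at 0.53 (edgeR adjusted p = 9.9e-06). Rgn spanned 0.80 (edgeR adjusted p = 0.0085) and Ugp2 0.60 (edgeR adjusted p = 0.0059), with mouse 2 lowest for both. For Rgn this order came from the 4n libraries, since in 2n-whole mouse 2 was the highest (102 CPM) and mouse 3 the lowest (73.1 CPM).

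The transporters had another order of mice. Slc23a1 was between 29.8 and 32.9 CPM in the 4 libraries of mouse 3 and between 36.4 and 63.0 CPM in the other 11, so mouse 3 did not overlap any other animal, and the span was 0.89 (edgeR adjusted p = 1.2e-06). Slc23a2 was lowest in mouse 3 as well, at -0.59 from the mean, and highest in mouse 1 at 0.44, a span of 1.02 (edgeR adjusted p = 0.0002). Here the populations gave no call in any of the 6 comparisons. Ugdh spanned 0.36 (edgeR adjusted p = 0.024), highest in mouse 3, and Akr1a1 0.09 (edgeR adjusted p = 0.82).

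**Figure D3:**
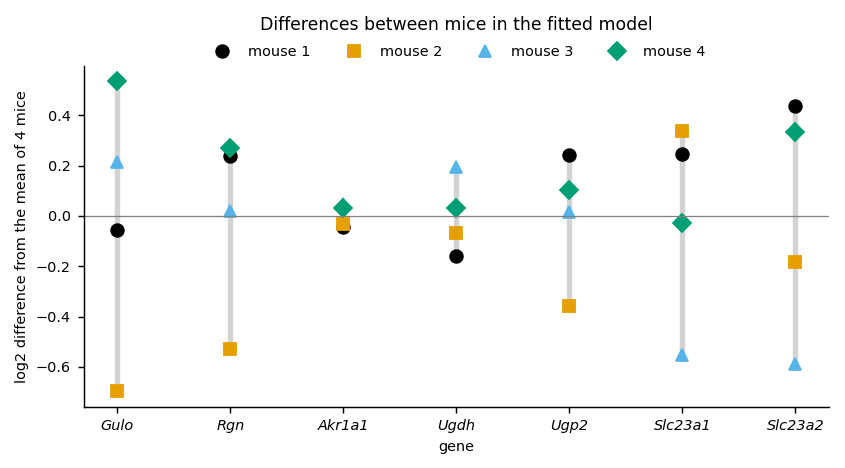
Differences between the 4 mice for each gene, as the fitted log2 value of a mouse minus the mean of the 4 mice (vertical axis), after the populations are accounted for, with grey bars from the lowest to the highest mouse. Mouse 2 is lowest for Gulo (-0.70), Rgn (-0.53) and Ugp2 (-0.36), mouse 3 is lowest for Slc23a1 (-0.55) and Slc23a2 (-0.59), and the points of Akr1a1 nearly coincide.

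Slc23a1 was several times as abundant as Slc23a2 per kilobase. With canonical lengths the ratio of the levels was 7.84 ± 1.07 in 2n-whole, 8.15 ± 2.73 in 4n-bottom, 7.72 ± 3.72 in 4n-top (n = 3) and 7.06 ± 2.31 in 4n-whole (SD, n = 4 elsewhere), differences within the spread. Over the union of exons it was 10.0 ± 1.36 in 2n-whole and 9.01 ± 2.94 in 4n-whole. Rgn had 2.88 ± 0.75 counts for each count of Gulo in 2n-whole, 2.28 ± 0.42 in 4n-bottom, 3.17 ± 0.55 in 4n-top and 2.73 ± 0.50 in 4n-whole, ranges that all overlapped. Within mice this ratio was higher in 4n-top than in 4n-bottom in 3 of 3 and lower in 4n-bottom than in 2n-whole in 4 of 4, a description with no test.

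Gulo and Rgn followed each other across the 15 libraries, with a Pearson r of 0.95 on log2 CPM after the mean of each mouse was removed. Gulo and Ugp2 had an r of -0.67, Ugp2 and Slc23a1 of 0.78, and Akr1a1 and Rgn of 0.76. These correlations describe 15 libraries that share mice and populations. Among the 7372 genes with a mean log2 CPM of at least 3, those most like Gulo by this measure were Cyp2a5 (r = 0.987) and Cyp2c37 (r = 0.987), both cytochrome P450 genes, and Oat, ornithine aminotransferase (r = 0.979). Those most like Rgn were the cytochrome P450 genes Cyp2c50 (r = 0.988), Cyp2e1 (r = 0.984) and Cyp2c29 (r = 0.981). The Cyp2c genes are close paralogs, between which reads can be split. When the mouse means were kept, 3 of these 6 genes remained among the first 3.

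Cyp2a5, Cyp2e1 and Oat, named above for their likeness to Gulo or Rgn, belong to the list of pericentral markers. In 4n-whole against 2n-whole, 8 of its 9 genes were called higher, with a median log2 fold change of 1.61 (-0.01 over all genes tested), among them Cyp2a5 at 1.60 (edgeR adjusted p = 7.1e-08), Cyp1a2 at 1.65 (edgeR adjusted p = 9.1e-08) and Glul, glutamine synthetase, at 1.30 (edgeR adjusted p = 1.3e-06). The summed CPM of the 9 genes was 489.8 to 836 in 2n-whole, 835 to 2100 in 4n-bottom, 826 to 3186 in 4n-top and 857 to 2929 in 4n-whole. Of the 10 periportal markers, 2 were called lower, Cyp2f2 at -0.73 (edgeR adjusted p = 7.7e-05) and Hsd17b13 at -0.61 (edgeR adjusted p = 0.00044), and the list median was -0.25. Of all genes tested in 4n-whole against 2n-whole, 1.74% were called higher and 1.73% lower. The part of lobular position in the Gulo, Rgn and Ugp2 values was not tested.

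In 4n-top against 4n-bottom the pericentral genes did not go one way. Glul was called lower in 4n-top, at -0.90 (edgeR adjusted p = 0.0499), whereas Cyp2e1 stood at 0.72 and Cyp1a2 at 0.60 (edgeR adjusted p = 0.91 for both) and the median of the 9 genes was 0.02. Without mouse 2 both Cyp2e1 (0.98, edgeR adjusted p = 1.9e-06) and Cyp1a2 (0.80, edgeR adjusted p = 0.00048) were called higher. The Glul call was lost without mouse 3 (-0.82, edgeR adjusted p = 0.071) and without mouse 4 (-0.86, edgeR adjusted p = 0.45), and over 10 alternatives the adjusted p by edgeR or DESeq2 was 3.9e-10 to 1. No periportal marker was called, where 0.0114% of all genes tested were. Sds, with the smallest p of that list, is a serine dehydratase gene at 162 ± 49.9 CPM in 4n-bottom and 138 ± 23.8 CPM in 4n-top, a log2 fold change of -0.34 (edgeR adjusted p = 1).

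**Figure D4:**
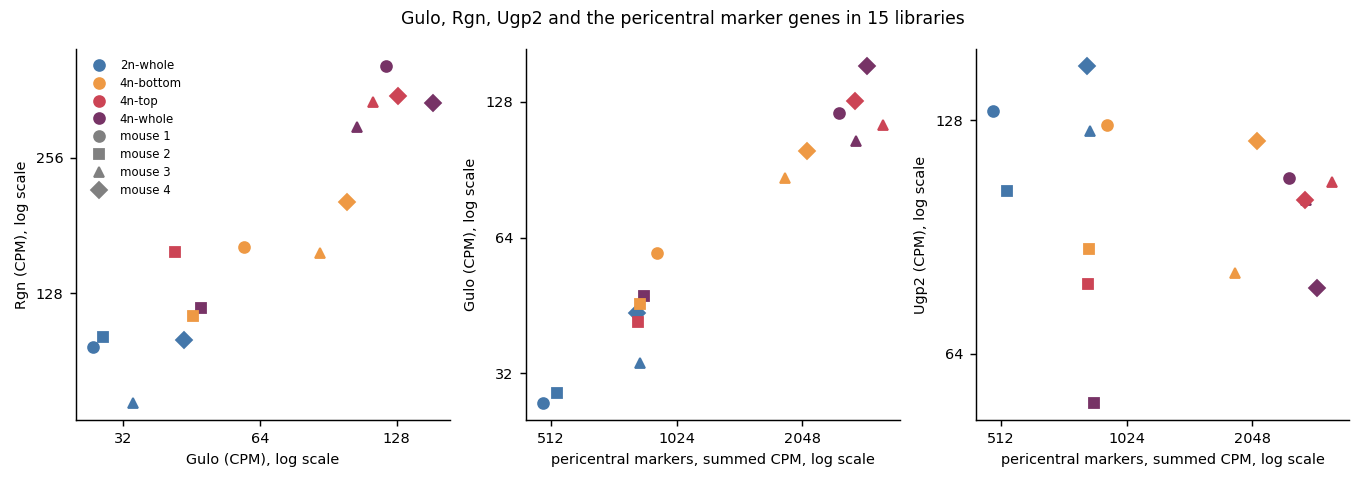
Left, Rgn against Gulo. Middle and right, Gulo and Ugp2 against the summed CPM of 9 pericentral markers. All axes are CPM on log scales, each point is 1 of the 15 libraries, and colour gives the population and symbol the mouse. The 4n libraries of mouse 2 (826 to 857 CPM of pericentral markers) lie among or next to the 2n-whole libraries in the middle panel, and Ugp2 in 4n-whole of mouse 2 (55.3 CPM) is the lowest value of the right panel.

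The genes around the route were read from lists of named pathways. Glucuronate and gulonate can also leave the route towards xylulose. In 4n-whole against 2n-whole, where 3.47% of all genes were called, 1 of the 5 genes tested there was called, Cryl1, a gulonate dehydrogenase, which was lower at -0.53 (SE 0.13; edgeR adjusted p = 0.018), with 42.04 ± 4.41 CPM in 2n-whole and 29.7 ± 7.19 CPM in 4n-whole. Without mouse 1 it was -0.44 (edgeR adjusted p = 0.09) and without mouse 4 -0.42 (edgeR adjusted p = 0.23), in a range of 0.00013 to 0.27 over 10 alternatives. Against the same 3.47%, of 15 users of UDP-glucuronate, mostly glucuronosyltransferases, 1 was called, Ugt2b38, lower at -1.61 (SE 0.13; edgeR adjusted p = 3.8e-08). Ugt2b genes are near-identical in stretches, so the split of reads among them is uncertain.

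Dehydroascorbate, the oxidized form, enters cells through glucose transporters and is reduced inside. Of 9 genes tested for this, 1 was called lower (3.47% of all genes were called in either direction), Slc2a2, which encodes the glucose transporter GLUT2, at -0.65 (SE 0.12; edgeR adjusted p = 0.0016), with 252 ± 41.4 CPM in 2n-whole and 162 ± 43.4 CPM in 4n-whole. Of 16 ascorbate-using dioxygenases tested, 0 were called by edgeR at both thresholds, beside 3.47% of all genes. The smallest p among them belonged to Tet3, which oxidizes methylated cytosine in DNA, at 0.39 (edgeR adjusted p = 0.041), under the limit on the fold change. Of 7 transcription factors linked to these genes or to zonation, 1 was called, again beside 3.47% of all genes, Nr1i3, which encodes the nuclear receptor CAR, higher at 1.53 (SE 0.16; edgeR adjusted p = 6.7e-07).

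In 4n-top against 4n-bottom none of these 5 lists held a called gene, where 0.0114% of all genes tested were called. The smallest p of each belonged to Cryl1, Ugt2b38, Cyb5b, Egln3 and Nr1i3, all with an edgeR adjusted p of 1. Egln3, an oxygen-sensing prolyl hydroxylase that uses ascorbate, was at 8.65 ± 2.05 CPM in 4n-top (n = 3) and 6.58 ± 1.73 CPM in 4n-bottom (n = 4).

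**Figure D5:**
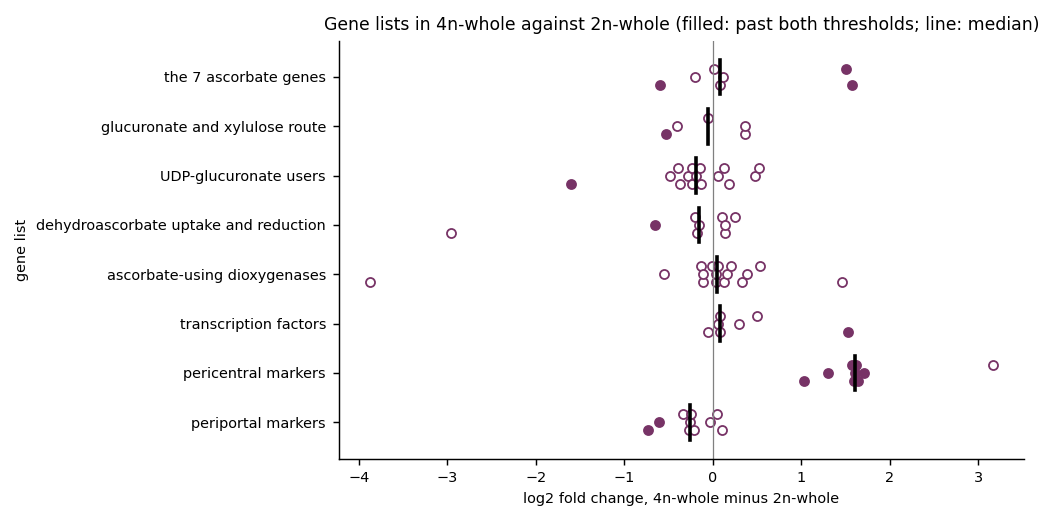
Log2 fold changes in 4n-whole against 2n-whole (horizontal axis) for each tested gene of the 7 ascorbate genes, 5 lists of related genes and 2 lists of zonation markers (vertical axis). Filled points passed both thresholds and the black line is the median of a list. The pericentral list, with a median of 1.61, has 8 of 9 points filled, where 3.47% of all genes tested passed both thresholds. The open points farthest from 0 are genes of low counts with wide errors.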

How the data were processed

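RNA-seq of sorted hepatocytes (SMART-Seq Stranded Kit) gave 15 libraries. According to the submitters' processing notes, STAR 2.7.11a, featureCounts of Subread and the build GRCm39 were used, and the authors deposited raw counts per gene symbol, without normalization. The annotation, the strand setting and the handling of read pairs are not given in the sources used here. Should mates have been counted singly, a count is not a whole fragment.

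Populations and mice were taken from the sample labels, where the subject number is the animal. Residuals of libraries of the same mouse correlated across genes at 0.084 to 0.227 (mean 0.158, 21 pairs). Those of different mice correlated at -0.207 to 0.092 (mean -0.053, 63 pairs), so the ranges overlapped slightly. The residuals are values minus the population mean, which by itself pushes correlations between different mice below 0 on average. Counts were tested with edgeR 4.0.16 in R 4.3.3 (TMM, filterByExpr at 10 counts and 15 in total, quasi-likelihood fit of all 15 libraries with population and mouse) with Benjamini-Hochberg adjustment over the 17488 genes tested. SE is the log2 fold change divided by the square root of F. Log2 CPM for correlations used a prior count of 2. The code was tested on simulated data.

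The members, gene lists and tests were chosen with earlier results of these data known. All 7 members are named in every comparison. Of each further pathway or zonation list, up to 3 called genes with the smallest p are named, or else the gene with the smallest p, in 4n-whole against 2n-whole and in 4n-top against 4n-bottom, and the 3 genes most like Gulo and the 3 most like Rgn. The genes Gm63415, Vps54, Gm12043, Gm14051 and Gm43552 and the markers Spp1, Sox9, Alas2, Hbb-bs and Hba-a2 were named after their values or positions were seen. Some results are not reported here. Alternatives were no block for mouse, DESeq2 1.42.0 with the block, ComBat-seq (sva 3.50.0) followed by DESeq2, DESeq2 size factors in edgeR, no filter, the compared libraries only, no limit on the fold change and leaving out each mouse. Of the 55984 symbols, 55865 matched GENCODE M39, and promoter sequences were read from the GRCm39 genome at its canonical start sites.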

Additional observations from a re-analysis of the deposited data

Results flagged for a closer look

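A sample far from the others of its group was looked for in 21 groups of 4 libraries, and chance alone would mark about 1 in 20 of them. There were 2. Rgn in 2n-whole of mouse 3 was at 73.1 CPM, while the other 3 mice were at 97.2 to 102 CPM. Akr1a1 in 4n-bottom of mouse 1 was at 193 CPM, while the other 3 were at 225 to 231 CPM. The ratio of the gap to the range was 0.832 for Rgn and 0.841 for Akr1a1, each just above the critical value for 4 samples.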

How the results depend on the processing

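Without the replicate block, the members called fell to 0 in 4n-bottom against 2n-whole and to 0 in 4n-top against 2n-whole, and all genes called in 4n-whole against 2n-whole went from 607 to 40, with Gulo (1.67, adjusted p = 0.039) and Rgn (1.64, adjusted p = 0.020) still called by edgeR, Ugp2 not, and Cyp1a2 (adjusted p = 0.020) the one other named gene still called. The block changed no call of a member in the 3 comparisons among 4n populations. Without the filter on low counts, 2 members were called in 4n-bottom against 2n-whole and 2 in 4n-whole against 4n-bottom, and with the compared libraries only 2 in 4n-bottom against 2n-whole. The cause was not tested. When each mouse was left out, the members called ranged from 2 to 3 in 4n-whole against 2n-whole, 1 to 2 in 4n-bottom against 2n-whole and 0 to 2 in 4n-whole against 4n-bottom, and those that differed between mice from 4 to 6. Of the 6 genes most like Gulo and Rgn, 3 remained with the mouse means kept.

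Directions turned for genes that were not called. Without the block, Slc23a2 was -0.0046 in 4n-top against 4n-bottom, 0.0007 in 4n-bottom and -0.0039 in 4n-top against 2n-whole, and 0.013 in 4n-whole against 4n-top, Slc23a1 was -0.028 in 4n-top against 4n-bottom, and Rgn was 0.043 in 4n-whole against 4n-top. With a mouse left out, Slc23a2 ranged from -0.11 to 0.11 in 4n-whole against 2n-whole, -0.037 to 0.32 in 4n-top against 4n-bottom, -0.16 to 0.049 in 4n-bottom and -0.047 to 0.37 in 4n-top against 2n-whole, -0.035 to 0.25 in 4n-whole against 4n-bottom and -0.31 to 0.0014 in 4n-whole against 4n-top. In the same way Ugp2 in 4n-top against 4n-bottom ranged from -0.18 to 0.051, Slc23a1 in 4n-top against 2n-whole from -0.080 to 0.089, Akr1a1 in 4n-whole against 4n-bottom from -0.0036 to 0.10 and Rgn in 4n-whole against 4n-top from -0.19 to 0.048. All genes called in 4n-whole against 2n-whole numbered 1160 with ComBat-seq and DESeq2, 305 with the compared libraries only and 244 to 1025 with a mouse left out. In 4n-top against 4n-bottom they numbered 2 by edgeR, 49 by DESeq2 with the block, 18 with ComBat-seq, 25 without the filter, 15 with the compared libraries only and 0 to 29 with a mouse left out. With 3 or 4 mice per population, differences as small as those of Slc23a2 could not be resolved.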
